A study of Rattus norvegicus with 120 samples.

Results

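Tacrolimus (FK506) at 6 mg/kg was set directly against rapamycin (Rapa) at 10 mg/kg in rat kidney after 7 daily doses. The members were the 8 arrays with these labels, 4 rats per drug, of 120 arrays in the series. The series, by its title, looked for early markers of the kidney toxicity of calcineurin inhibitors. It covers vehicle, cyclosporine (CsA), FK506 and Rapa, each drug at 2 doses, after 1, 7, 14 or 28 daily doses. All rats were male Sprague-Dawley rats, 5 to 7 weeks old before treatment. They were dosed intraperitoneally in olive oil, and kidneys were taken 24 hours after the last dose. The groups used here were FK506 6 mg/kg, Rapa 10 mg/kg and, as background, vehicle (olive oil alone), with 4 rats each after 7 doses. FK506 6 mg/kg and Rapa 10 mg/kg after 1 dose (4 and 4 rats), 14 doses (3 and 4 rats) and 28 doses (5 and 6 rats), and FK506 0.6 mg/kg and Rapa 1 mg/kg after 7 doses (4 rats each), served for comparison across days and doses. The doses in mg/kg were not the same for both drugs, so each difference is between these dosed groups.

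FK506 and Rapa are macrolides that bind the same intracellular immunophilin, FKBP12, the product of Fkbp1a. The complex of FK506 with FKBP12 inhibits calcineurin, the calcium-dependent phosphatase that lets NFAT transcription factors enter the nucleus. The complex of Rapa with FKBP12 inhibits mTOR complex 1, a kinase that drives growth, protein synthesis and cell division and holds back lysosome formation. In kidney, calcineurin inhibitors are known for effects on salt, magnesium and calcium transport of the distal tubule, and mTOR inhibitors for slowing the division and repair of tubule cells. Both drugs suppress T cells.

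Levels are given as log2(intensity + 16) after quantile normalization, differences are FK506 minus Rapa on that scale, and a difference of 1 is a 2-fold ratio of (intensity + 16), which understates the change of dim genes. A gene was called at a Benjamini-Hochberg adjusted p under 0.05 in limma, over 10663 genes. FK506 and Rapa kidneys differed in 686 genes (6.43%), of which 435 (4.08%) were higher and 251 (2.35%) lower in FK506 kidneys. Of these, 51 were more than 2-fold higher and 11 more than 2-fold lower. The median difference of the called higher genes was 0.56 and that of the called lower genes was -0.44, against 0.01 over all genes. In 1407 genes (13.2%) the values of the FK506 and Rapa rats did not overlap, and 546 of the called genes were among these, 352 with every FK506 rat above and 194 with every FK506 rat below the Rapa rats.

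The median raw intensity ran from 65.85 to 70.33 on the FK506 arrays, from 70.77 to 79.72 on the Rapa arrays and from 64.45 to 67.62 on the vehicle arrays. Gapdh control probe sets at both ends of the transcript track RNA quality and labelling, and their log2 ratio (3-prime over 5-prime) averaged 0.44 ± 0.07 for FK506, 0.39 ± 0.04 for Rapa and 0.73 ± 0.17 for vehicle (SD, n = 4 each). Adding it to the model as a covariate gave 710 called genes between FK506 and Rapa. Kidney markers were high in FK506, Rapa and vehicle means alike, with Lrp2 (proximal tubule) at 13.13, 13.13 and 13.07 and Aqp2 (collecting duct) at 11.84, 11.88 and 12.06. No tested member of the liver, adrenal, pancreas, skeletal muscle and fat marker lists was called. Tested were 12 of 23 liver, 2 of 13 adrenal, 2 of 14 pancreas, 2 of 13 skeletal muscle and 6 of 10 fat markers. The summed intensity of the 12 liver markers overlapped between FK506 (1830 to 2362), Rapa (1930 to 2615) and vehicle rats (1628 to 2321). The 95% interval for Alb (liver) was -2.36 to 2.75, with the spread shared over all 28 groups of the series. With so few markers and so wide an interval, this check says little about other tissue in the samples. The kidney pieces are mixtures, so fewer cells of a type and less RNA per cell cannot be told apart. Without Rapa rat 2 the count of called genes was 398, and leaving out any other single FK506 or Rapa rat gave counts up to 647. A fit to the 8 arrays alone called 329 genes. Among the genes named by fixed rules below, that fit did not call Kif20a, Pkn3, Hbb, Umod, Klk1b3, Gdf15, Krt8, Ptgds, Top2a, Prc1, Irf7, Ifi44, Lck, Angptl4, Cpt2, Igfals, Igfbp2, Herpud1, Creld2, Abcc2, Myc, Nr4a2, Lox, Col1a1, Col5a1, Acss2, Ifgga2l1, Spatc1 and LOC102547042.

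**Figure D1:**
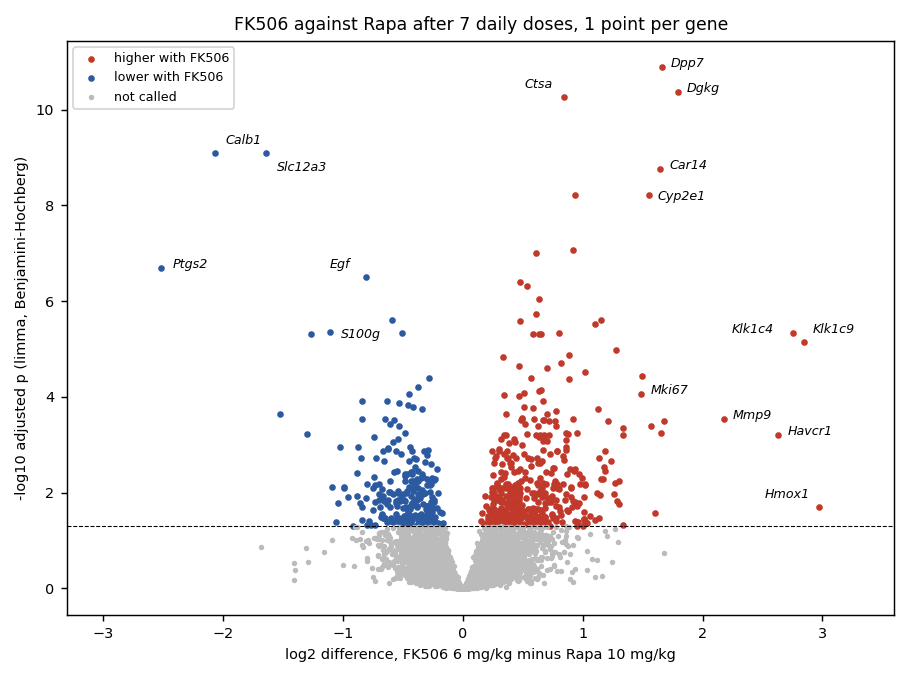
Each point is 1 of 10663 genes, with the log2 difference of FK506 6 mg/kg minus Rapa 10 mg/kg on the x axis and minus log10 of the adjusted p from limma on the y axis. Red points are the 435 genes called higher and blue points the 251 genes called lower in FK506 kidneys, with the largest differences from -2.51 (Ptgs2) to 2.97 (Hmox1).

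The largest rise was in Hmox1, heme oxygenase 1, which breaks down heme and is induced by oxidative stress. Its log2 level was 8.15, 8.86, 9.42 and 6.27 in FK506 rats 1 to 4, against 5.79, 5.15, 5.70 and 4.18 in Rapa rats 1 to 4. All FK506 rats lay above all Rapa rats, and FK506 rat 4 lay far below the other FK506 rats. The difference was 2.97 (SE 0.86, adjusted p = 0.02), a 7.84-fold ratio, and it was not called without FK506 rats 2 or 3 or Rapa rats 2 or 4 (2.56 to 2.95). Vehicle rats were at 6.61, 6.76, 6.17 and 6.60. All Rapa rats lay below the vehicle rats, FK506 rat 4 lay within their range and the other FK506 rats lay above it. Neither drug differed from vehicle by a called amount (FK506 1.64, adjusted p = 0.332 and Rapa -1.33, adjusted p = 0.385).

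Havcr1 encodes kidney injury molecule 1, a phagocytic receptor that injured proximal tubule cells display. Its log2 level was 9.17, 9.02, 8.32 and 9.86 in FK506 rats and 5.80, 6.71, 6.89 and 6.44 in Rapa rats. Every FK506 rat was above every Rapa rat, and the Rapa rats overlapped the vehicle rats (6.10, 6.78, 6.32 and 6.86). The difference was 2.63 (SE 0.55, adjusted p = 0.000624), a 6.2-fold ratio. Against vehicle, FK506 was higher by 2.57 (SE 0.55, adjusted p = 0.00225), while Rapa was at -0.06 (adjusted p = 0.968). In CsA 25 mg/kg rats of the same day the mean was 7.23.

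Of 27 tubular injury genes tested, 4 were higher and none lower in FK506 kidneys, with a median of 0.21. The summed intensity of the list overlapped between the groups. It ran from 28610 to 37370 in FK506 rats, from 28620 to 39220 in Rapa rats and from 30280 to 36190 in vehicle rats. Besides Hmox1 and Havcr1 these were Gdf15, a stress-induced cytokine (0.96, SE 0.31, adjusted p = 0.0418), and Krt8, a keratin of simple epithelia (0.39, SE 0.12, adjusted p = 0.039). Gdf15 was not called without FK506 rats 1, 2 or 3 or Rapa rats 1, 2 or 4 (0.75 to 1.02), and Krt8 not without FK506 rats 1, 2, 3 or 4 or Rapa rats 3 or 4 (0.32 to 0.40). The count of called members was 1 without FK506 rat 2, FK506 rat 3 or Rapa rat 4, and 2 without FK506 rat 1 or Rapa rat 2. Other injury genes were not called: the 95% interval of the difference was -0.54 to 0.77 for Spp1 (osteopontin, 0.11), -0.84 to 1.23 for Lcn2 (NGAL, 0.19), -0.02 to 1.17 for Clu (clusterin, 0.57) and -0.23 to 0.64 for Timp1 (a metalloproteinase inhibitor, 0.21). These intervals are not adjusted for the number of genes. Each of these 4 genes had overlapping FK506 and Rapa rats.

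Genes of the distal convoluted tubule, the segment that reabsorbs sodium chloride by a thiazide-sensitive route and fine-tunes calcium and magnesium, were lower in FK506 kidneys. Of 18 tested, 8 were lower and none higher, the median was -0.48, and each of the 18 differences was below 0. All gene lists, this one included, were chosen with earlier results of these data known. Their counts describe the members and are no independent test. Without any one rat, 7 to 9 members were called lower. The summed intensity of the list ran from 28330 to 32430 in FK506 rats, from 38690 to 43030 in Rapa rats and from 36960 to 42870 in vehicle rats. FK506 rats were below all Rapa and all vehicle rats in this sum.

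Calb1 encodes calbindin-D28k, the cytosolic calcium carrier of distal tubule cells. Its log2 level was 10.65, 9.97, 10.32 and 9.87 in FK506 rats, against 12.39, 12.19, 11.99 and 12.51 in Rapa rats and 12.67, 11.99, 12.31 and 12.15 in vehicle rats. All FK506 rats lay below all Rapa rats, which overlapped the vehicle rats. The difference was -2.07 (SE 0.25, adjusted p = 8.05e-10), which makes the level 4.19-fold lower in FK506 kidneys. Slc12a3, the thiazide-sensitive sodium chloride cotransporter, stood at 7.47, 8.11, 8.10 and 8.01 in FK506 rats, against 9.47, 9.73, 9.46 and 9.60 in Rapa rats and 10.55, 9.83, 9.96 and 9.91 in vehicle rats. FK506 rat 1 was the lowest, no FK506 rat reached a Rapa rat, and the Rapa rats in turn lay below all vehicle rats. For Slc12a3, FK506 minus Rapa was -1.64 (SE 0.19, adjusted p = 8.05e-10), FK506 minus vehicle was -2.14 (adjusted p = 1.09e-14) and Rapa minus vehicle was -0.50 (adjusted p = 0.101, not called). The CsA 25 mg/kg means at day 7 were 9.95 for Calb1 and 8.10 for Slc12a3.

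Egf, the epidermal growth factor precursor made in distal segments, was at 12.28, 12.28, 12.34 and 12.04 in FK506 rats and at 13.05, 13.12, 12.99 and 12.99 in Rapa rats, a difference of -0.80 (SE 0.11, adjusted p = 3.13e-07) with no overlap. S100g, calbindin-D9k, was at 7.11, 7.72, 7.74 and 7.42 in FK506 rats, against 8.36, 8.70, 8.96 and 8.40 in Rapa rats and 7.98, 7.54, 7.68 and 7.82 in vehicle rats. The FK506 rats overlapped the vehicle rats, and the Rapa rats lay above both other groups. For S100g, FK506 minus Rapa was -1.11 (SE 0.18, adjusted p = 4.48e-06), and Rapa minus vehicle was 0.85 (SE 0.18, adjusted p = 0.000724). Slc8a1, the sodium-calcium exchanger of the basolateral membrane, differed by -0.73 (SE 0.19, adjusted p = 0.00701). The kinase gene Wnk1 (-0.62), Cnnm2 of magnesium transport (-0.63) and Klhl3, a ubiquitin ligase adaptor that marks WNK kinases for degradation (-0.61), were also called lower. Here and in the lists below, genes that complete a list's called members were named after their values were seen. Klhl3 was not called without FK506 rat 4 or Rapa rats 2 or 4 (-0.59 to -0.50). Trpv5, the apical calcium channel, was not called (-0.04, 95% interval -0.44 to 0.35).

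The neighbouring segments had few called genes. In the thick ascending limb list 1 of 10 was called, Umod (uromodulin, the main protein of normal urine), at -0.29 (SE 0.07, adjusted p = 0.00162). Only 2 of the 10 differences were above 0, and the median was -0.18. The summed intensity of this list was 21280 to 23350 in FK506 rats, below the 24420 to 26640 of Rapa rats (vehicle 23130 to 26230). Of 14 connecting tubule and collecting duct genes 1 was called, higher, with 3 differences above 0 and a median of -0.15. Among 9 intercalated cell genes 1 was called, Slc26a4 (pendrin, a chloride-bicarbonate exchanger). Its log2 level was 9.84, 9.89, 10.02 and 9.86 in FK506 rats, against 8.89, 9.05, 8.80 and 9.05 in Rapa rats and 9.90, 9.49, 10.35 and 10.04 in vehicle rats. The Rapa rats lay below all FK506 and vehicle rats. The difference was 0.95 (SE 0.20, adjusted p = 0.000577), and Rapa was also called below vehicle (adjusted p = 0.000342). In the intercalated cell list 8 of the 9 differences were above 0, and the median was 0.18. Its summed intensity was 9423 to 10310 in FK506 rats, above the 7600 to 8783 of Rapa rats (vehicle 8935 to 13330). None of 9 podocyte genes and 1 of 16 endothelial genes was called, Emcn (endomucin, a surface sialomucin of capillaries and veins), at -0.46 (SE 0.09, adjusted p = 0.000149). The summed intensity of the endothelial list was also lower in FK506 rats (8279 to 8799) than in Rapa (9494 to 10310) and vehicle rats (8913 to 9286).

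Tissue kallikreins are serine proteases that release kinins and are secreted by the connecting tubule. Of 11 in the list, 10 were on the array and 3 were tested, and these 3 were called higher in FK506 kidneys. The median of these 3 was 1.15 after 7 doses and 0.24 after 28 doses. Klk1, the main kidney kallikrein, was at 12.86, 12.58, 13.05 and 12.86 in FK506 rats, against 11.60, 11.87, 11.63 and 11.64 in Rapa rats and 12.26, 11.06, 12.32 and 12.25 in vehicle rats. All FK506 rats exceeded all Rapa rats, and vehicle rat 2 was the lowest of the 12. The difference was 1.15 (SE 0.18, adjusted p = 2.48e-06). Against vehicle, FK506 was called higher for Klk1 by 0.86 (SE 0.18, adjusted p = 0.00155), and Rapa was at -0.29 (adjusted p = 0.364, not called). Klk1c4, a further paralog, was at 10.35, 10.46, 11.80 and 11.41 in FK506 rats, against 8.17, 8.06, 8.41 and 8.34 in Rapa rats and 9.97, 9.35, 10.45 and 9.99 in vehicle rats. Its Rapa rats lay below all vehicle rats and its FK506 rats above all Rapa rats. FK506 minus Rapa was 2.76 (SE 0.44, adjusted p = 4.61e-06) for Klk1c4 and 2.85 (SE 0.46, adjusted p = 7.13e-06) for Klk1c9, a 7.2-fold ratio. For Klk1c9 the log2 level ran from 7.71 (rat 2) to 8.74 (rat 4) in FK506 rats and was 5.01, 5.93, 5.72 and 4.23 in Rapa rats, without overlap. For these 2 paralogs Rapa was called below vehicle (Klk1c4 -1.69, adjusted p = 0.00846, and Klk1c9 -2.05, adjusted p = 0.00213), while FK506 was not called against vehicle (1.07 and 0.80). Klk1b3 was called at 0.60 (SE 0.16, adjusted p = 0.00995), with overlapping rats, and was not called without FK506 rat 3 (0.51). Neither drug was called against vehicle for Klk1b3 (FK506 0.21, adjusted p = 0.561, and Rapa -0.39, adjusted p = 0.119). These paralogs are near-identical in sequence, so how a probe set divides the signal among them is uncertain.

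Ptgs2 encodes cyclooxygenase 2, the inducible prostaglandin synthase that the kidney makes in the macula densa and the medullary interstitium. It was the gene with the largest fall, at 6.12, 5.98, 5.43 and 5.47 in FK506 rats, against 7.66, 8.59, 8.49 and 8.31 in Rapa rats and 7.55, 7.26, 7.40 and 7.42 in vehicle rats. The FK506 rats lay below all vehicle rats, and every Rapa rat lay above every vehicle rat. The difference was -2.51 (SE 0.35, adjusted p = 2.01e-07), a 5.71-fold lower level in FK506 kidneys. Set against vehicle, FK506 was at -1.65 (SE 0.35, adjusted p = 0.00229) and Rapa at 0.86 (adjusted p = 0.125). Ptgds, a prostaglandin D synthase, ran the other way at 7.82, 9.99, 9.35 and 9.18 in FK506 rats, against 8.37, 7.65, 7.55 and 7.70 in Rapa rats and 10.03, 9.38, 9.21 and 8.25 in vehicle rats. FK506 rat 1 lay within the Rapa range. The difference was 1.27 (SE 0.32, adjusted p = 0.0063), and it was not called without FK506 rat 2 (0.97). These 2 genes were the called ones among 13 genes tested of a list of prostaglandin and vasoactive hormone genes.

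**Figure D2:**
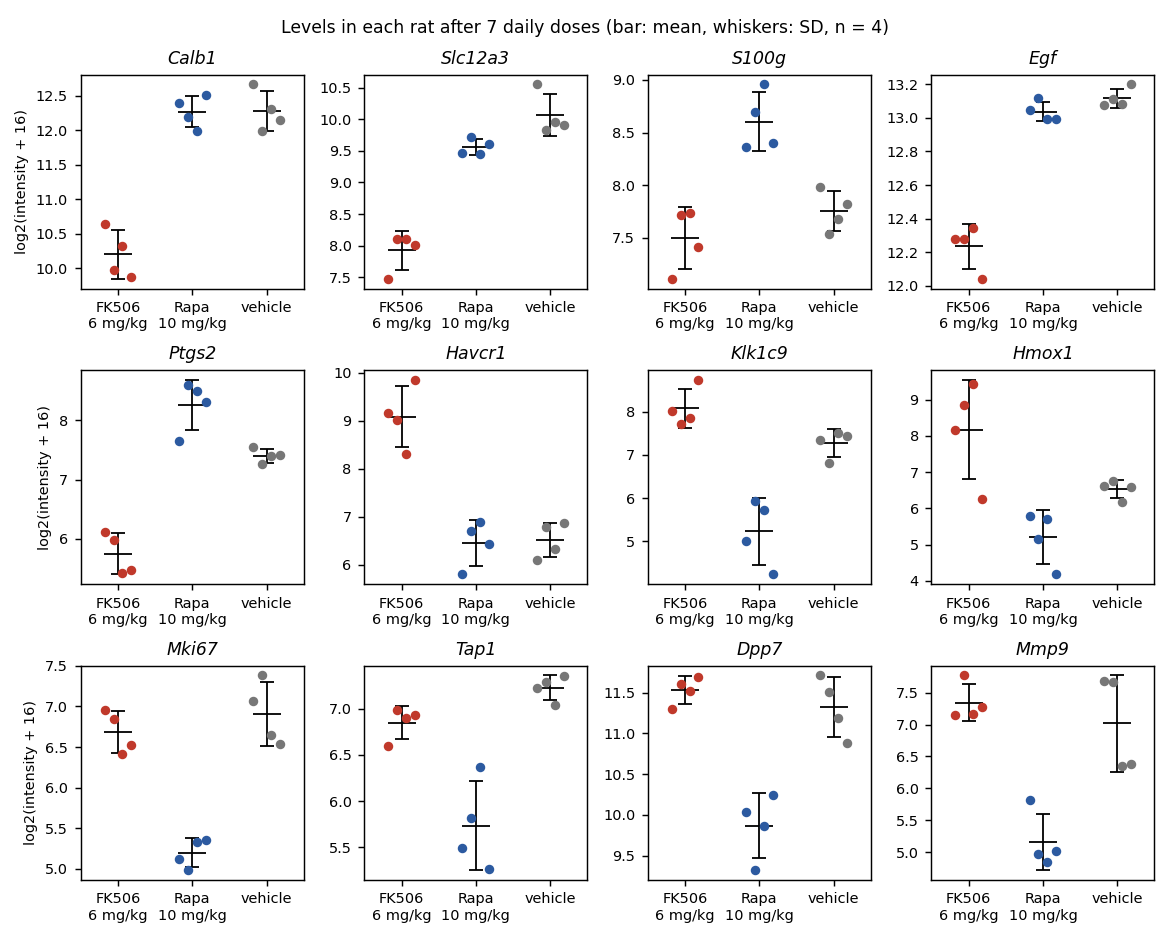
Log2(intensity + 16) of 12 genes in each rat after 7 daily doses, with FK506 6 mg/kg in red, Rapa 10 mg/kg in blue and vehicle in grey; ticks are means and whiskers SD (n = 4 each). In each of the 12 panels the FK506 rats do not overlap the Rapa rats, and vehicle rats lie nearer to Rapa for Calb1, Egf and Havcr1 but nearer to FK506 for Mki67, Dpp7 and Mmp9.

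The remaining genes with the largest rises included several enzymes and transporters. Dpp7, a dipeptidyl peptidase of lysosomes and secretory vesicles, had the lowest adjusted p of all genes. It was at 11.29, 11.60, 11.52 and 11.69 in FK506 rats, against 10.04, 9.33, 9.87 and 10.25 in Rapa rats and 11.71, 11.51, 11.19 and 10.88 in vehicle rats. Rapa rats lay below every FK506 and vehicle rat. The drugs differed by 1.66 (SE 0.17, adjusted p = 1.27e-11), a 3.16-fold ratio, and Rapa minus vehicle was -1.45 (SE 0.17, adjusted p = 4.59e-09). Dgkg, diacylglycerol kinase gamma, had 10.65, 10.82, 10.79 and 10.91 in FK506 rats, against 9.38, 8.21, 9.09 and 9.31 in Rapa rats, a difference of 1.79 (SE 0.19, adjusted p = 4.24e-11) with no overlap. Other probe sets of Dgkg gave 1.57 and, for a dim one, 0.22. Stra6, the cell-surface receptor for retinol-binding protein, differed by 1.65 (SE 0.34, adjusted p = 0.000577), and Adh1c, an alcohol dehydrogenase, by 1.68 (SE 0.33, adjusted p = 0.000322). Rapa was below vehicle for Dgkg (-1.51), Stra6 (-1.25) and Adh1c (-1.51), each called, and FK506 was not called against vehicle in any of these 3.

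In other genes both drugs left the vehicle level in opposite directions. Car14, a membrane-bound carbonic anhydrase, was at 9.22, 9.65, 9.80 and 9.64 in FK506 rats, against 8.43, 7.36, 7.84 and 8.08 in Rapa rats and 8.91, 8.79, 8.75 and 8.34 in vehicle rats. FK506 rats were above all vehicle rats, and Rapa rats lay below all of them apart from Rapa rat 1. FK506 minus Rapa was 1.65 (SE 0.20, adjusted p = 1.7e-09), with 0.88 against vehicle for FK506 and -0.77 for Rapa, both called. A second Car14 probe set gave 0.64. Cyp2e1, an ethanol-metabolizing cytochrome P450, was at 12.94, 13.16, 12.75 and 13.08 in FK506 rats, against 11.75, 11.09, 11.08 and 11.80 in Rapa rats and 12.42, 11.64, 12.61 and 12.14 in vehicle rats. FK506 rats exceeded all vehicle rats, and the Rapa rats overlapped them. The difference was 1.55 (SE 0.20, adjusted p = 5.89e-09), and both drugs were called against vehicle (0.78 for FK506 and -0.77 for Rapa).

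Cyp2e1 belongs to the proximal tubule list, in which 5 of 27 genes were higher and 1 lower, with a median of 0.03. Besides Cyp2e1, the largest called differences were those of Slc34a3, a sodium-phosphate cotransporter (0.76, SE 0.18, adjusted p = 0.003), Slc7a9, the light chain of the cystine transporter (0.62, SE 0.14, adjusted p = 0.00184), and Slc22a2, an organic cation transporter (-0.61, SE 0.16, adjusted p = 0.00983). Slc22a2 was not called without Rapa rat 2 (-0.55). The count of higher members was 3 without FK506 rat 2, 3 or 4 or Rapa rat 1 or 2. Slc34a3 also stands in the list of vitamin D and phosphate genes, where 1 of 18 was higher and 3 were lower (Calb1, S100g and Slc8a1). Cyp27b1, the enzyme that activates vitamin D, was at 7.32, 6.48, 6.52 and 6.68 in FK506 rats and 5.75, 6.27, 6.01 and 5.15 in Rapa rats, without overlap, but its difference of 0.96 (SE 0.35, adjusted p = 0.0874) was not called.

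Lysosomal genes, the hydrolases and membrane proteins of the compartment where cells degrade macromolecules, were higher in 8 of 30 members tested and lower in none, with a median of 0.11. Leaving out any one rat gave 6 to 8 higher members. Ctsa, the protective protein that stabilizes lysosomal sialidase and galactosidase, was at 13.20, 13.35, 13.27 and 13.28 in FK506 rats, against 12.58, 12.11, 12.58 and 12.46 in Rapa rats and 13.19, 13.27, 13.18 and 13.00 in vehicle rats. Rapa rats lay below all FK506 and vehicle rats. FK506 minus Rapa was 0.84 (SE 0.09, adjusted p = 5.42e-11) for Ctsa, 0.57 for Ctsh (cathepsin H), 0.54 for Hexa (a beta-hexosaminidase subunit), 0.49 for Gaa (acid alpha-glucosidase) and 0.48 for Ctsb (cathepsin B). In these 5 genes Rapa was called below vehicle. Gpnmb, a glycoprotein of lysosomes and melanosomes, had the largest difference of the list at 1.26 (SE 0.34, adjusted p = 0.0109), and it was not called without FK506 rat 4 or Rapa rat 2 (1.04 to 1.07). Ctsl (cathepsin L, 0.29) and Lamp2 (a lysosomal membrane protein, 0.23) completed the called members. Ctsl was not called without Rapa rat 4 (0.25) and Lamp2 not without FK506 rat 4 or Rapa rats 1, 2 or 3 (0.19 to 0.23). Autophagy genes of the list such as Sqstm1, Becn1 and Atg5 were not called. The summed intensity of the list ran from 87020 to 93910 in FK506 rats, from 72130 to 77970 in Rapa rats and from 80130 to 88350 in vehicle rats. RefSeq promoters matched 25 of the 30 genes and 6 of the 8 called ones, and the letters TCACGTGA, known as the CLEAR element of lysosomal genes, occurred in 5 of the 25 and in none of the 6, against 0.86% of all 27457 promoters and 1.75% of those of 8909 tested genes.

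Cell division genes were higher in FK506 kidneys in 9 of 29 members tested and lower in none, with a median of 0.33. Mki67, the Ki-67 antigen of cycling cells, was at 6.95, 6.85, 6.41 and 6.53 in FK506 rats, against 5.12, 4.99, 5.33 and 5.36 in Rapa rats and 7.07, 7.38, 6.65 and 6.54 in vehicle rats. Rapa rats lay below all FK506 and vehicle rats, which overlapped. Between the drugs Mki67 differed by 1.49 (SE 0.27, adjusted p = 8.56e-05), with Rapa minus vehicle -1.71 (SE 0.27, adjusted p = 6.93e-06) and FK506 minus vehicle -0.22 (adjusted p = 0.763). Top2a, the topoisomerase that untangles replicated chromosomes, was at 7.27, 6.81, 6.39 and 6.57 in FK506 rats and 5.65, 6.54, 5.29 and 4.21 in Rapa rats. Rapa rat 2 lay within the FK506 range and Rapa rat 4 was the lowest. The difference was 1.34 (SE 0.28, adjusted p = 0.000624), and a second probe set gave 0.59, not called. Kif20a, a mitotic kinesin outside the list, was among the largest rises of all genes (1.57, SE 0.32, adjusted p = 0.000398). Top2a and Kif20a were dim, and with an offset of 1 in place of 16 their differences were 2.09 and 2.85.

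Prc1, which bundles spindle microtubules, differed by 1.02 (SE 0.26, adjusted p = 0.00678). Cdkn3, a cell cycle phosphatase (1.01, adjusted p = 0.0356), was not called without FK506 rats 1, 2 or 4 or Rapa rats 1, 3 or 4 (0.86 to 1.03). Hmmr, a spindle protein (0.92), was called without any one rat, whereas Ccnb2 (cyclin B2, 0.82) was not called without FK506 rats 1, 2 or 4 or Rapa rats 1, 2 or 3 (0.66 to 0.83), Cdca3 (0.78) not without FK506 rats 1, 2 or 3 or Rapa rats 1, 2, 3 or 4 (0.56 to 0.83), Cdk1 (0.77) not without FK506 rats 1 or 2 or Rapa rats 1, 2 or 3 (0.54 to 0.81) and Tk1 (thymidine kinase, 0.53) not without FK506 rat 1 or Rapa rat 4 (0.47 to 0.48). The count of called members was 4 without FK506 rat 1, 5 without FK506 rat 2 or Rapa rat 1, 6 without Rapa rat 2, 3 or 4, and 7 or 8 without FK506 rat 4 or 3. Replication genes of the same list were not called, with -0.11 for Pcna, 0.01 for Mcm2 and 0.33 for Mcm6. Against vehicle, 14 of the 29 were lower with Rapa and 2 lower with FK506.

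The promoters of Mki67 and Top2a are printed because both were among the called cell division genes with the largest differences, from RefSeq on GRCr8, 250 bases before to 50 after the start site, with the letters TTTGAA (read on either strand) in capitals. These letters are known as the cell cycle homology region (CHR), the element through which the DREAM and MuvB complexes control mitotic genes.
Mki67 chr1:199952544-199952843, minus strand: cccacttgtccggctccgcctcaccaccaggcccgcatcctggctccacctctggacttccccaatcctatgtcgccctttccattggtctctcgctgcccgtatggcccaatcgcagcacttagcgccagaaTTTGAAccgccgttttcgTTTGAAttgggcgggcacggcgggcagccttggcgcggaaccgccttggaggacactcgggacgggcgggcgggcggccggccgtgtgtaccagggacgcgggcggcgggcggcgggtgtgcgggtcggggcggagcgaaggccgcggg
Top2a chr10:84473044-84473343, minus strand: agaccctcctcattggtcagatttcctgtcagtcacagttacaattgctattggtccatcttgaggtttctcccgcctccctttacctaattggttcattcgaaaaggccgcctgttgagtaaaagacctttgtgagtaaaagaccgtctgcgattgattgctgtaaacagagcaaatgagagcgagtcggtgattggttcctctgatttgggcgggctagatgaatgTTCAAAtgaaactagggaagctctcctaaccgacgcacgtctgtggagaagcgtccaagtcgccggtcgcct
In Mki67 the element began 117 and 99 bases before the start site, and in Top2a 22 bases before it. TTTGAA occurred in 13 of 25 cell division promoters that matched and in 7 of 9 called ones, against 18.2% of all 27457 promoters and 11.2% of those of 8909 tested genes. CCAAT, the NF-Y element, occurred in 21 of the 25 and in 8 of the 9, against 37.7% both of all promoters and of those of tested genes, and in Mki67 it overlaps a TTTGAA by 1 base. A match of letters is a description of the sequence and was not tested for binding.

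Interferon-induced genes, which cells switch on through the ISGF3 and IRF factors, lay higher in FK506 than in Rapa kidneys. Of 23 tested, 5 were called higher and none lower, the median was 0.51, and all 23 differences were above 0. Tap1, a subunit of the peptide transporter for antigen presentation, was at 6.59, 6.98, 6.89 and 6.93 in FK506 rats, against 5.49, 5.82, 6.36 and 5.26 in Rapa rats and 7.22, 7.29, 7.04 and 7.35 in vehicle rats. Rapa rats lay below all FK506 rats, which in turn lay below all vehicle rats. The Tap1 difference was 1.12 (SE 0.30, adjusted p = 0.0101), and it was not called without Rapa rat 4 (0.96). Cxcl10, a chemokine that draws T cells, was at 7.51, 7.42, 7.94 and 7.51 in FK506 rats, against 6.28, 6.24, 7.01 and 6.16 in Rapa rats and 6.96, 7.17, 6.67 and 7.03 in vehicle rats. FK506 rats exceeded all others, and Rapa rat 3 was the highest Rapa rat. The difference was 1.17 (SE 0.29, adjusted p = 0.0051).

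Irf7, the transcription factor that amplifies the interferon response, was at 8.48, 8.19, 9.02 and 8.77 in FK506 rats and 7.51, 8.08, 7.02 and 7.78 in Rapa rats, without overlap, a difference of 1.02 (SE 0.33, adjusted p = 0.0433). It was not called without FK506 rats 1, 3 or 4 or Rapa rats 1, 3 or 4 (0.83 to 1.08). Ifi44, an interferon-induced protein, was at 6.93, 6.37, 6.85 and 7.07 in FK506 rats and 6.55, 6.29, 6.04 and 4.67 in Rapa rats, with overlap and with Rapa rat 4 the lowest. Its difference of 0.92 (SE 0.26, adjusted p = 0.0197) was not called without FK506 rats 1 or 4 or Rapa rat 4 (0.51 to 0.87). The fifth, Ifi44l, was at 0.66 and was not called without FK506 rats 1, 2, 3 or 4 or Rapa rats 2 or 4 (0.52 to 0.69). The number of called members was 1 without Rapa rat 4, 2 without FK506 rat 1 or 4, and 3 without FK506 rat 3, and the median then ran from 0.44 to 0.51. Against vehicle, 14 of the 23 were lower with Rapa and none was called with FK506 (medians of -0.41 for FK506 and -0.87 for Rapa).

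The 5 called interferon genes all had RefSeq promoters holding the core of the interferon-stimulated response element (ISRE), GAAA repeated after any 2 bases, searched on both strands, and the sites are shown with 10 bases on each side where the window allows, ISRE in capitals, on the strand that carries the letters and with GRCr8 coordinates.
Irf7 chr1:205800073-205800102: tgcgtctcggGAAAATGAAAcctaaactgt
Ifi44 chr2:243303847-243303876: cctgggaaatGAAACTGAAActcagtgtgc
Ifi44 chr2:243303795-243303824: caagcctgcaGAAAACGAAAagagaaactt
Ifi44l chr2:243328622-243328651: aacaggatgaGAAAAAGAAAgccaagcaga
Ifi44l chr2:243328654-243328683: ttccagtgagGAAAATGAAAgtaaagggca
Cxcl10 chr14:15988816-15988842: cgctttgGAAAGTGAAActtaactcac
Tap1 chr20:4668645-4668674: agaggaagaaGAAACCGAAAgcagccaccg
The letters occurred in 11 of 16 interferon promoters that matched, against 3.79% of all 27457 promoters and 2.91% of those of 8909 tested genes. In the Irf7 promoter the site lay 69 bases before the start, and in that of Tap1 121 bases before it. Both promoters are printed whole, the element in capitals as read on the gene's own strand, since these genes had called differences and single sites.
Tap1 chr20:4668494-4668793, minus strand: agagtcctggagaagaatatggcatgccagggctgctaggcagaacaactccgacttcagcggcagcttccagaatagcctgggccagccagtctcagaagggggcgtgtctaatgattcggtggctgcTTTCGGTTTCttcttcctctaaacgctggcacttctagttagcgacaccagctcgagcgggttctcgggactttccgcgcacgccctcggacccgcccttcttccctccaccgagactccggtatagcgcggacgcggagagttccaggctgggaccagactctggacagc
Irf7 chr1:205799974-205800273, minus strand: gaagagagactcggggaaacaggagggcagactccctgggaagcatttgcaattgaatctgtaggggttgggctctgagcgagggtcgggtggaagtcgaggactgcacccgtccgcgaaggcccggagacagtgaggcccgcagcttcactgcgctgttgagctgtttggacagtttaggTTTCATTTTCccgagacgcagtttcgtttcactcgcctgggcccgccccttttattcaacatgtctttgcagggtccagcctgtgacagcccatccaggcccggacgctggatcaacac
What binds these sites in kidney was not tested.

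Markers of immune cells, which also express interferon-induced genes, were read beside them. Of 8 T and NK cell genes tested 1 was called, Lck, the T cell receptor kinase, at 0.54 (SE 0.17, adjusted p = 0.0332), and it was not called without FK506 rats 1 or 2 or Rapa rat 4 (0.25 to 0.50). The summed intensity of the 8 ran from 506.1 to 629.8 in FK506 rats, from 355.6 to 466.2 in Rapa rats and from 453 to 563.4 in vehicle rats, and the list median was 0.41. The defining genes Cd3e, Cd3d, Cd8a and Cd2 were not among the genes tested. Of 4 B cell and plasma cell genes 1 was called, Jchain, the joining chain of polymeric immunoglobulin (1.31, SE 0.32, adjusted p = 0.00565), and its second probe set gave 0.20. None of 20 macrophage genes was called, with 17 of the 20 differences above 0, a median of 0.28 and summed intensities of 9546 to 10060 in FK506 rats, 7606 to 9656 in Rapa rats and 8569 to 13600 in vehicle rats. The 2 largest macrophage differences were Adgre1 (F4/80, 0.66, adjusted p = 0.253) and Cd68 (0.65, adjusted p = 0.0765). In the fit to the arrays of the days compared Adgre1 (adjusted p = 0.0445), Cd68 (0.0404) and Cd86 (0.51, adjusted p = 0.0341) were called, as was Cd68 in the fit to the 8 arrays (0.0178). Without Rapa rat 3 Cd86 was called at 0.66 (adjusted p = 0.0198). None of 10 MHC class II genes was called in the full comparison. The part of immune cells in the interferon and cell division values was not tested.

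Mmp9, gelatinase B, was the called one of 4 neutrophil and acute inflammation genes. It was at 7.15, 7.77, 7.17 and 7.27 in FK506 rats, against 5.81, 4.98, 4.84 and 5.02 in Rapa rats and 7.68, 7.66, 6.35 and 6.38 in vehicle rats. Rapa rats lay below all FK506 and vehicle rats. The difference was 2.18 (SE 0.43, adjusted p = 0.000294), a 4.53-fold ratio, a second probe set gave 1.65, and Rapa minus vehicle was -1.86 (SE 0.43, adjusted p = 0.00247).

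Genes of fatty acid oxidation and of its regulator PPAR-alpha were higher in 6 of 25 members and lower in 1, with a median of 0.23. The lower one was Cyp4a8, a fatty acid hydroxylase, at -0.31, which was not called without FK506 rat 4 or Rapa rat 4 (-0.26 to -0.23). Angptl4, a secreted inhibitor of lipoprotein lipase, was at 10.27, 9.80, 10.55 and 9.83 in FK506 rats and 8.77, 8.63, 10.39 and 8.28 in Rapa rats, with Rapa rat 3 inside the FK506 range. Its difference was 1.10 (SE 0.35, adjusted p = 0.0371) and was not called without FK506 rats 1 or 3 or Rapa rats 1, 2 or 4 (0.85 to 1.05). Acot1, an acyl-CoA thioesterase (0.90, SE 0.21, adjusted p = 0.00326), and Ehhadh, the peroxisomal bifunctional enzyme (0.86, SE 0.18, adjusted p = 0.000557), had no overlap between FK506 and Rapa rats. Cpt2, the inner carnitine palmitoyltransferase, was at 0.41 and was not called without FK506 rat 3 or Rapa rat 2 (0.30 to 0.32). Without FK506 rat 3 or Rapa rat 2 the list had 4 higher members. Against vehicle, 11 of the 25 were lower with Rapa and 1 was lower with FK506.

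In sterol and fatty acid synthesis 1 of 22 was higher, Mvd, mevalonate diphosphate decarboxylase (1.14, SE 0.26, adjusted p = 0.00192), and 1 lower, Acss2, an acetyl-CoA synthetase (-0.37, SE 0.09, adjusted p = 0.0057), which was not called without Rapa rat 2 (-0.31). Mvd was dim, at 6.35, 6.17, 6.57 and 6.49 in FK506 rats and 5.57, 5.68, 5.24 and 4.54 in Rapa rats, without overlap. The list median was 0.13, but the summed intensity of the list was lower in FK506 rats (15690 to 16900). It ran from 17220 to 18840 in Rapa rats and from 17910 to 18920 in vehicle rats. The letters TCACCCCAC, a sterol regulatory element, were in none of 16 matched promoters of this list, against 0.484% of all promoters and 0.348% of those of tested genes.

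In insulin and IGF signalling, upstream of mTOR, 4 of 19 genes were higher and none lower, with a median of 0.05. Grb10, an adaptor that mTOR complex 1 stabilizes and that dampens insulin signals, was at 8.56, 8.46, 8.51 and 8.73 in FK506 rats, against 7.98, 7.85, 8.15 and 7.95 in Rapa rats and 8.81, 8.22, 8.75 and 8.71 in vehicle rats. Rapa rats lay below all FK506 and vehicle rats. FK506 minus Rapa was 0.58 (SE 0.11, adjusted p = 0.000172), but 2 further probe sets gave 0.27 and -0.12. Igfals, the acid-labile subunit that carries IGF in blood, was at 0.82 and was not called without FK506 rats 2, 3 or 4 or Rapa rats 1, 2 or 4 (0.66 to 0.90). Igf2r (0.48, a receptor that clears IGF2) was not called without FK506 rat 2 or Rapa rats 2 or 3 (0.43 to 0.48), and Igfbp2 (0.48, an IGF-binding protein) not without FK506 rats 1 or 4 or Rapa rats 1 or 2 (0.40 to 0.47). Without Rapa rat 2 the list had 1 higher and 1 lower member, and without FK506 rat 2 or 4 or Rapa rat 1 it had 2 higher members. Igfbp1 was at -1.30 with an adjusted p of 0.146, and its Rapa rats spread widely (11.53, 11.13, 13.41 and 11.89, against 10.42, 10.61, 11.21 and 10.50 in FK506 rats).

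The genes of the drug targets themselves showed no called difference. None of 15 calcineurin and NFAT genes and none of 25 mTOR genes was called, with medians of -0.09 and -0.05. The summed intensity of the calcineurin and NFAT list was nonetheless lower in FK506 rats (6326 to 6631) than in Rapa (6698 to 7121) and vehicle rats (6787 to 7387). That of the mTOR list overlapped between FK506 (15470 to 16430) and Rapa rats (16280 to 16950). Fkbp1a, which encodes the shared receptor FKBP12, was at 10.41, 10.49, 10.19 and 10.31 in FK506 rats, against 10.34, 10.19, 10.40 and 10.55 in Rapa rats and 10.50, 10.78, 10.42 and 10.30 in vehicle rats. These ranges overlapped, and the difference was -0.02 with a 95% interval of -0.21 to 0.17. For Ppp3ca, a catalytic subunit of calcineurin, the difference was -0.02 (-0.15 to 0.12), for Mtor 0.01 (-0.13 to 0.16) and for Rcan1, a calcineurin inhibitor protein that NFAT induces, -0.18 (-0.53 to 0.18). The largest differences in these lists, none called, were Crtc1 (-0.70) and Nfatc4 (0.40) for calcineurin and Ddit4l (-0.67) and Sesn3 (0.42) for mTOR. Of 16 immunophilins 1 was called, Fkbp11, an isomerase of the endoplasmic reticulum (0.45, SE 0.14, adjusted p = 0.0312), which was not called without FK506 rats 1, 3 or 4 or Rapa rats 1, 2 or 4 (0.41 to 0.47). Fkbp5, a glucocorticoid-induced immunophilin, was at -0.80 (-1.62 to 0.02) and not called.

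Few stress genes were called, in both directions. Of 26 unfolded protein and amino acid stress genes 2 were higher and 3 lower, with a median of 0.02. Over all genes 4.08% were called higher and 2.35% lower. The list had 1 higher and 1 lower member without FK506 rat 1, 2 or 4 or Rapa rat 2. Without Rapa rat 4 it had 2 higher and 0 lower members. Vldlr, a lipoprotein receptor, differed by 0.94 (SE 0.12, adjusted p = 5.89e-09), and Atf3, a stress-induced transcription factor, by 1.02 (SE 0.32, adjusted p = 0.0383), which was not called without FK506 rats 1, 2, 3 or 4 or Rapa rats 2 or 4 (0.85 to 1.05). Further Vldlr probe sets gave 0.28, 0.30 and 0.59. Herpud1, of the degradation of misfolded proteins, was at -0.67 and was not called without FK506 rats 1, 2 or 4 or Rapa rats 1, 3 or 4 (-0.70 to -0.56), and Creld2, a chaperone-like protein, was at -0.47 and not called without FK506 rats 1, 3 or 4 or Rapa rats 2, 3 or 4 (-0.48 to -0.40). Ddit3 (CHOP) was at -0.38 and not called without FK506 rat 2 or Rapa rats 2 or 4 (-0.36 to -0.34). Among 21 oxidative stress genes Hmox1 and Abcc2, an efflux pump for conjugates (0.88), were called, and Abcc2 was not without FK506 rats 1, 3 or 4 or Rapa rats 1 or 2 (0.61 to 0.87). Nqo1 (0.09), Gclc (-0.12) and Srxn1 (0.00), which NRF2 also controls, were not.

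Of 20 immediate early genes 2 were higher and 2 lower. Myc, a growth-promoting transcription factor, was at 7.68, 7.29, 7.28 and 7.28 in FK506 rats, against 6.60, 5.62, 6.70 and 6.71 in Rapa rats and 6.09, 6.95, 6.06 and 6.73 in vehicle rats. FK506 rats exceeded all others. FK506 minus Rapa was 0.98 (SE 0.25, adjusted p = 0.00664) and was not called without Rapa rat 2 (0.71), and FK506 minus vehicle was 0.93 (SE 0.25, adjusted p = 0.0206). Ier3 (-0.86, SE 0.24, adjusted p = 0.0166), a survival gene, lay in Rapa above vehicle by 0.88, and it was not called without FK506 rat 1 or Rapa rat 3 (-0.80 to -0.79). Nr4a2, an orphan nuclear receptor, was at -0.59 and not called without FK506 rats 1, 2 or 4 or Rapa rats 3 or 4 (-0.58 to -0.50). The fourth called gene was Atf3.

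Among 26 collagen and matrix genes Col1a1 (0.93) and Col5a1 (0.57), chains of fibrillar collagens, were higher and Lox, the lysyl oxidase that crosslinks collagen (-1.09, SE 0.28, adjusted p = 0.00765), was lower. Col1a1 was not called without FK506 rats 1, 2 or 4 or Rapa rats 1, 3 or 4 (0.70 to 1.00), Col5a1 not without FK506 rats 1 or 2 or Rapa rats 2 or 3 (0.48 to 0.52) and Lox not without FK506 rat 4 or Rapa rat 4 (-0.89). Second probe sets, none of them called, gave 0.73 for Col1a1, 0.62 for Col5a1 and -0.81 for Lox. With all probe sets kept apart, the Col1a1 probe set used was not called either (adjusted p = 0.0576 in limma). The summed intensity of the list overlapped, at 20620 to 26890 in FK506, 20800 to 27860 in Rapa and 24440 to 27280 in vehicle rats. Tgfb1, the central profibrotic cytokine, was at 0.20 with a 95% interval of -0.21 to 0.60 and was not called.

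The other large falls in FK506 kidneys were in genes of several kinds. C2h3orf80, an open reading frame whose role is left out here, was at 7.77, 7.56, 8.46 and 7.98 in FK506 rats, against 9.45, 9.68, 9.99 and 8.77 in Rapa rats and 8.41, 8.63, 8.60 and 8.30 in vehicle rats, a difference of -1.53 (SE 0.30, adjusted p = 0.000228) with no overlap between drugs. Pappa2, a protease that frees IGF from its binding proteins, differed by -1.30 (SE 0.27, adjusted p = 0.000595), though its second probe set gave -0.24. For both genes Rapa was called above vehicle (0.99 and 0.86) and FK506 was not called. Sfrp2, a secreted Wnt modulator, was at 7.63, 7.90, 7.21 and 7.46 in FK506 rats and 8.92, 9.16, 8.60 and 8.56 in Rapa rats, a difference of -1.26 (SE 0.20, adjusted p = 4.73e-06), and its second probe set gave -1.66. Tmod1, which caps actin filaments, differed by -1.02 (SE 0.22, adjusted p = 0.00113).

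Dnase1, a secreted nuclease, differed by -0.99 (SE 0.25, adjusted p = 0.00781) and was not called without FK506 rat 2 (-0.82). Tgm3, a transglutaminase, differed by -0.95 (SE 0.26, adjusted p = 0.0125) and was not called without FK506 rat 4 or Rapa rat 2 (-0.86 to -0.85). Pkn3, a kinase of the protein kinase N family, was dim, at -1.06, and was not called without FK506 rats 1 or 4 or Rapa rats 1, 2 or 3 (-1.08 to -0.76). Hbb, beta globin of red cells, was at 10.79, 10.19, 10.97 and 10.56 in FK506 rats, against 12.86, 11.29, 11.40 and 11.11 in Rapa rats and 12.50, 12.08, 12.26 and 12.11 in vehicle rats. Rapa rat 1 lay above the other Rapa rats. The difference was -1.04 (SE 0.29, adjusted p = 0.0167) and was not called without FK506 rat 2 or Rapa rat 1 (-0.89 to -0.64). Globin RNA comes with blood left in the tissue, and the summed intensity of the globin and erythroid list ran from 1920 to 2793 in FK506 rats, from 2960 to 8622 in Rapa rats and from 5177 to 6718 in vehicle rats.

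**Figure D3:**
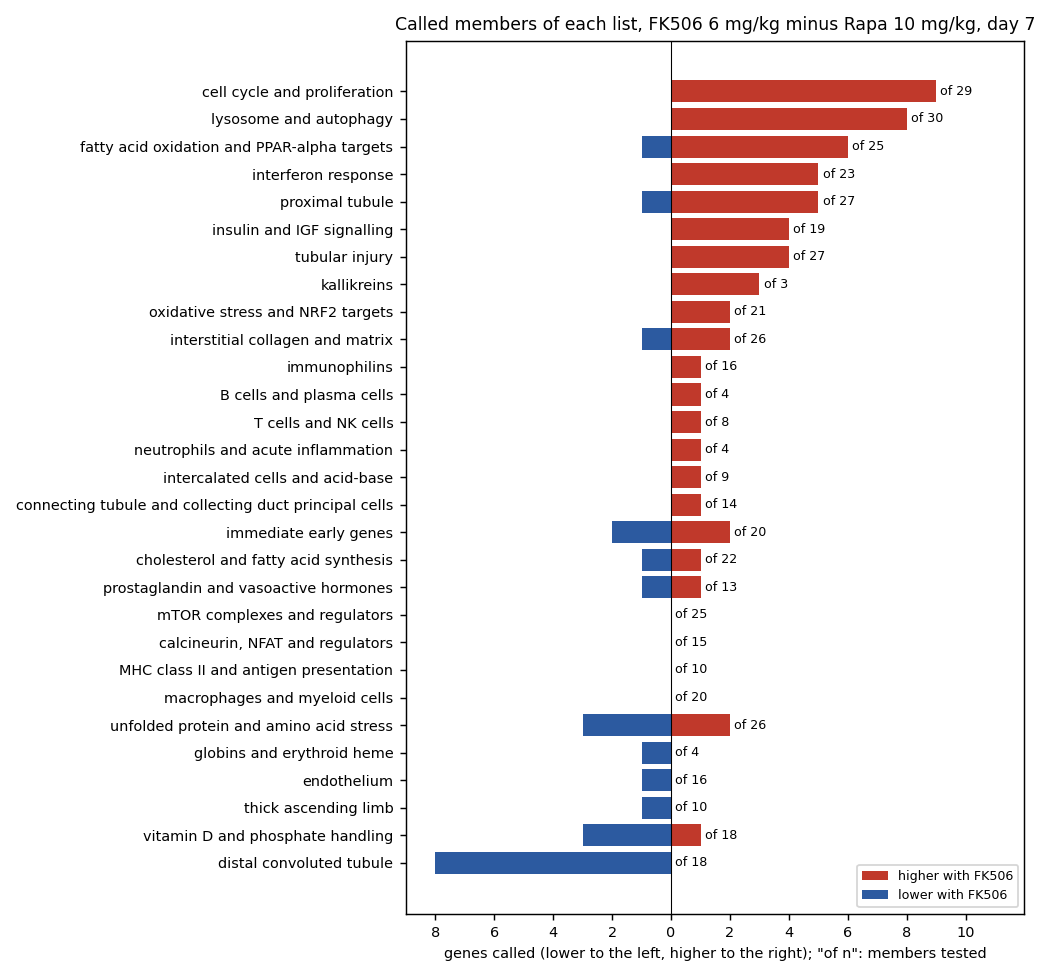
Bars give, for each of 29 gene lists, how many members were called higher (red, to the right) or lower (blue, to the left) in FK506 6 mg/kg than in Rapa 10 mg/kg kidneys after 7 doses, with the number tested beside each bar. Over all 10663 genes 4.08% were called higher and 2.35% lower. The distal convoluted tubule had 8 of 18 lower, cell division 9 of 29 higher and the lysosome list 8 of 30 higher. The lists were chosen with earlier results of these data known, so the counts are descriptions.

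Each drug was also placed beside the same 4 vehicle rats. FK506 differed from vehicle in 338 genes (3.17%), 189 higher (1.77%) and 149 lower (1.4%). Rapa differed from vehicle in 781 genes (7.32%), 323 higher (3.03%) and 458 lower (4.3%). Changes over 2-fold numbered 9 higher and 8 lower with FK506, and 10 higher and 57 lower with Rapa. The count for FK506 was 162 without FK506 rat 2, 176 without vehicle rat 4, 181 without FK506 rat 4 and 222 without FK506 rat 1, and the count for Rapa was 444 without Rapa rat 2. The medians that follow are for genes chosen by FK506 minus Rapa on the same arrays. That choice sets which drug has the higher value, and it favours opposite signs around vehicle. The genes called higher in FK506 than in Rapa had a median of 0.19 against vehicle for FK506 and of -0.33 for Rapa. Those called lower had medians of -0.19 for FK506 and 0.21 for Rapa. Both sets of values share the vehicle rats, whose Gapdh ratio was higher than that of either drug, and its part in these values was not tested beyond the covariate fit, which called 239 genes for FK506 and 564 for Rapa.

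**Figure D4:**
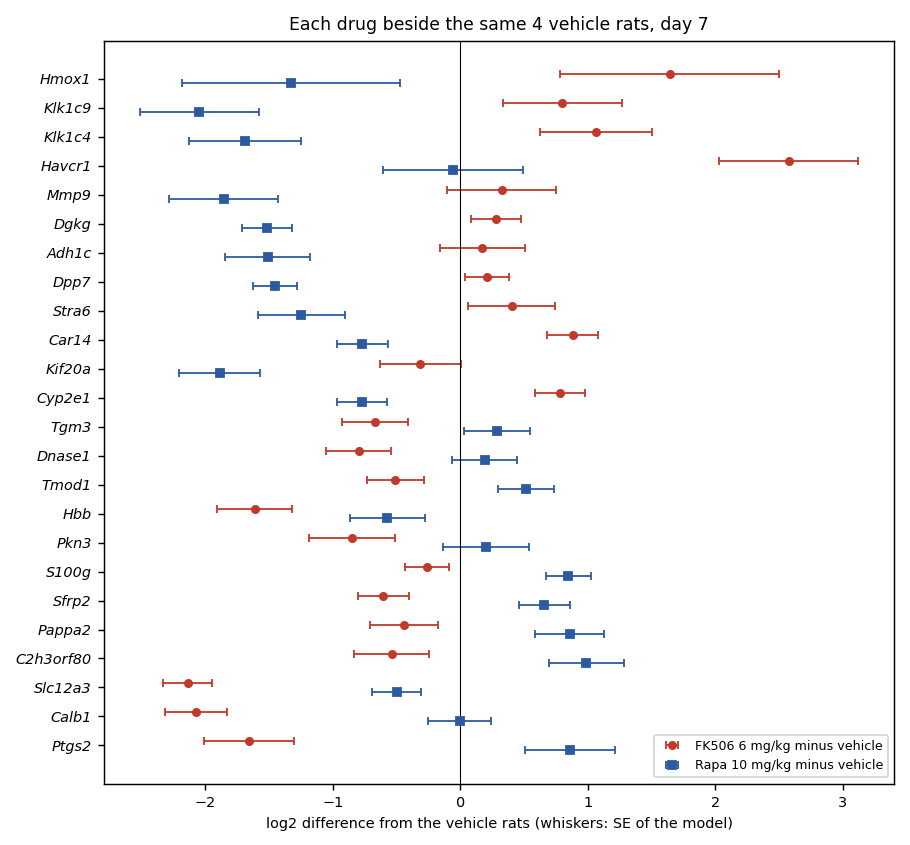
Log2 differences from the same 4 vehicle rats for the 12 genes with the largest rises and the 12 with the largest falls between the drugs, FK506 as red circles and Rapa as blue squares, with the SE of the model as whiskers. Havcr1, Calb1 and Slc12a3 lie far from 0 in FK506 (2.57, -2.07 and -2.14), whereas Klk1c9, Dgkg, Dpp7 and Kif20a lie far below 0 in Rapa (-2.05, -1.51, -1.45 and -1.89).

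The lower doses, FK506 0.6 mg/kg and Rapa 1 mg/kg, and the other days used different rats, so their differences could be set beside the day 7 values. Of the 686 called genes 636 (92.7%) had the same sign at the lower doses, against 65.9% of all genes. The share was 81.3% after 1 dose, 89.7% after 14 doses and 92.9% after 28 doses, against 58.7%, 63.1% and 65.6% of all genes. Across all genes the difference at the lower doses correlated with that at the higher doses at r = 0.51 (Spearman 0.43), and after 1, 14 and 28 doses at r = 0.24, 0.44 and 0.53. Genes are not independent replicates, and these values are descriptions. A test of the higher-dose minus the lower-dose difference called no gene in limma (0%), with 573 genes at an unadjusted p under 0.05.

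At the lower doses Calb1 still differed by -1.95 (SE 0.25), Dpp7 by 1.64 (SE 0.17), Dgkg by 1.83 and Ctsa by 0.71, each close to its higher-dose value. Havcr1 was at 0.35 (SE 0.55), Tap1 at -0.02 (SE 0.30) and Slc12a3 at -0.72 (SE 0.19), nearer to 0 than at the higher doses, but for none of these was the change with dose called. The list medians at the lower doses were -0.34 for the distal convoluted tubule, 0.42 for cell division, 0.26 for interferon genes and -0.01 for tubular injury.

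The values of 7 genes described above are given at each time, and for none of them was the change between 1 and 7 or between 7 and 28 doses called. Slc12a3 differed by -1.86, -1.64, -1.83 and -1.58 after 1, 7, 14 and 28 doses, while Calb1 differed by -0.95, -2.07, -2.55 and -3.06. Havcr1 was at -0.25 after 1 dose, then at 2.63, 3.36 and 2.73. The interferon gene Tap1 had both signs, with -0.23, 1.12, -0.33 and 0.92, as did Irf7, with -0.30, 1.02, -0.05 and 0.97. Mki67 was positive at each time (1.26, 1.49, 1.00 and 0.58). Hmox1 was at 2.74 after 14 doses and 0.48 after 28.

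The change of the difference between 1 and 7 doses was called in 26 genes (0.244%), with 1158 at an unadjusted p under 0.05. Leaving out single rats gave 9 (FK506 rat 2 of day 7) to 60 (FK506 rat 4 of day 1) called genes, with 10 to 13 without day 7 FK506 rat 4 or Rapa rat 2 or day 1 FK506 rat 2 or Rapa rat 2 or 3. Dpp7 moved most clearly, by 1.66 (SE 0.24, adjusted p = 9.7e-06), with 0.00 after 1 dose. Dgkg (1.42), Spatc1 (1.26), Klk1c4 (2.50, adjusted p = 0.0493) and Ifgga2l1, an interferon-inducible GTPase-like gene (1.76), also moved up. Klk1c4 was not called in 13 of 16 fits that each left out 1 rat, and Ifgga2l1 in 2. The lysosomal hydrolase genes Ctsa (0.68), Man2b1 (0.66), Glb1 (0.55) and Hexa (0.48), picked out after their values were seen, were among the 26. Downward changes included Adam9 (-1.67), a membrane protease, Acadsb (-0.97), an acyl-CoA dehydrogenase, Ap1s1 (-0.95), a clathrin adaptor subunit, Zbtb24 (-0.91) and LOC102547042 (-0.80). Of these Ap1s1 kept its call in all 16 fits, and the others lost it in 8 to 12. After 7 doses the difference between the drugs itself was not called for Adam9 (-0.55), Acadsb (-0.39) or Ap1s1 (-0.13). Between 7 and 28 doses 1 gene was called (0.00938%), Prorsd1 (-0.89), with 985 at an unadjusted p under 0.05. It was not called in 13 of 19 fits without 1 rat.

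**Figure D5:**
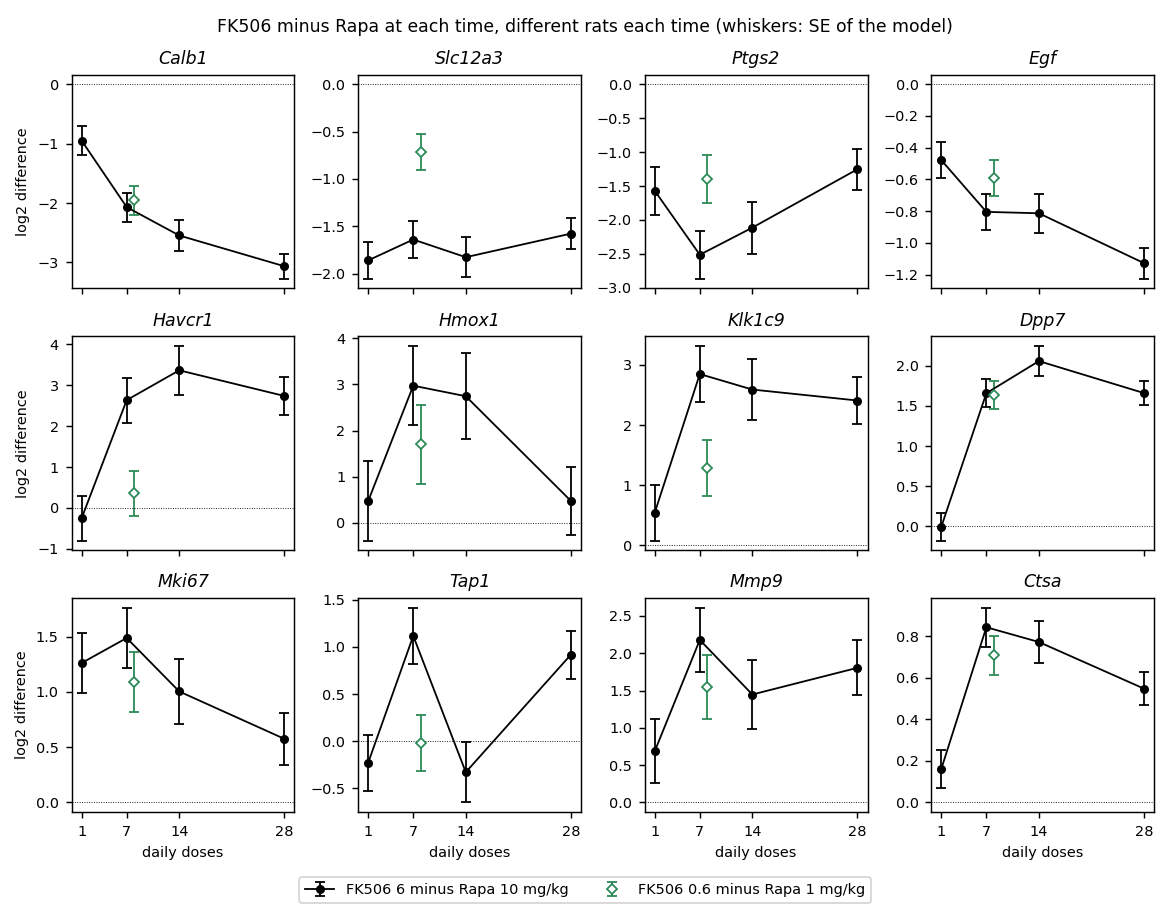
Log2 difference of FK506 minus Rapa for 12 genes after 1, 7, 14 and 28 daily doses of 6 and 10 mg/kg (black, joined) and after 7 doses of 0.6 and 1 mg/kg (green diamonds, drawn just right of 7), with the SE of the model as whiskers. Calb1 and Slc12a3 lie below 0 at every time, Dpp7 lies near 0 after 1 dose and at 1.66 after 7, and Tap1 crosses 0.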

How the data were processed

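Kidney RNA was hybridised to Affymetrix rat expression arrays, 1 array per rat, and the deposited values are linear intensity values per probe set that the authors obtained with GeneChip Operating Software, per the labels' protocols. The probe summary and scaling steps are not given in the sources used here. All 120 arrays were used for the fit. Values were changed to log2(intensity + 16) and quantile normalized, control probe sets were dropped, and 20832 of 31099 probe sets with 1 gene symbol were kept (436 had several symbols and 9780 none). The probe set with the highest mean stood for each of 14217 genes, and the dimmest 25% of genes by overall mean were left out, which left 10663.

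limma 3.58.1 in R 4.3.3 fitted 1 mean for each of the 28 groups (lmFit and eBayes, 92 residual and 2.95 prior degrees of freedom), so the spread is shared over all groups. Every adjusted p is limma's, adjusted by Benjamini-Hochberg over all 10663 genes of a comparison, and every SE is the model's. The median SE of FK506 minus Rapa was 0.14, which with 4 arrays a group limits the precision. Among the 120 arrays 1, not of day 7, held zeros. The lowest mean correlation of an array with its own group was 0.87, and the next was 0.94. FK506 minus Rapa called 739 genes without the array with zeros. It called 703 without arrays whose Alb log2 level was above 12. The code of the fit was also run on simulated data with independent, normally distributed noise. Those data held no outlying rats and no linked genes, so the run says nothing about either. Rat numbers only name arrays, and whether rats shared a cage or a processing day is not given in the labels.

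Genes are named by these rules: the 12 largest rises and falls among called genes whose FK506 and Rapa rats did not overlap, up to 4 called members of each list (or the 2 largest where none was called), a fixed panel, and up to 5 called genes in each direction across doses and days. The members and the gene lists were chosen with earlier results of these data known. Alternatives changed the normalization, offset, filter, probe set choice, empirical Bayes settings, arrays fitted, covariates, threshold and each rat in turn. Leaving out rats for the list counts and for the genes called across days was added after seeing the data. Promoter sequences are from RefSeq (GRCr8).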

Additional observations from a re-analysis of the deposited data

Results flagged for a closer look

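In groups of 4 rats, 1 rat stood far from the other 3 in 16 of 208 group-by-gene checks over 104 named genes, and chance flags about 1 in 20 such groups. Among FK506 rats these were Slc12a3 in rat 1 (7.472), Myc in rat 1 (7.684), Nr4a2 in rat 3 (6.415), Lox in rat 4 (7.038) and Ddit4l in rat 4 (7.174). Among Rapa rats, rat 2 stood apart for Slc34a3 (9.777), Klk1 (11.87), Ctsh (12.62), Myc (5.617), Acss2 (13.27) and Ppp3ca (10.42). Rapa rat 3 stood apart for Cxcl10 (7.011), Cd86 (6.295) and Timp1 (8.624), Rapa rat 1 for Hbb (12.86) and Rapa rat 4 for Ifgga2l1 (4.37). All of these are log2 levels.

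The difference of FK506 minus Rapa itself changed between 1 and 7 doses, by the interaction term in limma, for Klk1c4 (2.499), Ifgga2l1 (1.758), Dpp7 (1.662), Dgkg (1.416) and Spatc1 (1.263) upward. It changed downward for Adam9 (-1.673), Acadsb (-0.965), Ap1s1 (-0.9451), Zbtb24 (-0.9142) and LOC102547042 (-0.7959). Between 7 and 28 doses it changed for Prorsd1 (-0.8914). Many of these calls rested on single rats. In 16 fits that each left out 1 rat, Klk1c4 lost its call in 13, LOC102547042 in 12 and Adam9 and Acadsb in 10. Zbtb24 lost it in 8 of the 16 and Ifgga2l1 in 2, and Prorsd1 lost it in 13 of 19.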

How the results depend on the processing

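No paired analysis was possible because the labels give rat numbers and no replicate number that the groups share. FK506 minus Rapa called 686 genes, with 329 in a fit to the 8 arrays compared and 302 at an adjusted p under 0.01, and 398 to 647 when 1 rat was left out. FK506 minus vehicle called 338 genes, with 174 in a fit to the arrays of the days compared and 162 to 383 when 1 rat was left out. Rapa minus vehicle called 781, with 444 to 701 when 1 rat was left out. The test of the difference between doses called 0 genes, with 0 to 1 when 1 rat was left out. The change between 1 and 7 doses was called in 26 genes, with 13 when dim genes were kept, 9 with the Gapdh ratio as a covariate and 9 to 60 when 1 rat was left out. The change between 7 and 28 doses was called in 1 gene, with 0 without quantile normalization, 0 when dim genes were kept, 0 with the Gapdh covariate and 0 to 2 when 1 rat was left out. Smaller fits hold fewer arrays, and the cause of the other changes was not tested. Over 104 named genes and the alternatives run for them, 1877 of 2080 values kept their side of the threshold, 198 lost the call and 5 gained it. No called value changed direction, while 11 values that were not called, of 6 genes (Fkbp1a, Ppp3ca, Mtor, Trpv5, Lcn2 and Spp1), changed sign. Without quantile normalization Gdf15, Cdkn3, Irf7, Lck, Igfals, Atf3, Herpud1, Fkbp11 and Prorsd1 were not called. With an offset of 1 Pkn3, Cdkn3 and Atf3 were not called. Signal over background limits dim genes such as Kif20a, Top2a, Mvd and Pkn3.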
